A study of Mus musculus with 7 samples.

Results

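Tbx21, Eomes and Hlx encode 3 transcription factors of the interferon program of lymphocytes, and chromatin accessibility at their loci was measured by ATAC-seq, an assay in which the Tn5 transposase inserts sequencing adapters into open DNA. All regions of the deposited table that overlapped a gene body of the GENCODE mm10 annotation or the 10 kb on either side of it were taken, which gave 20 of 113820 regions. Of these, 8 lay at Tbx21, 5 at Eomes and 7 at Hlx. Regions were assigned to the genes by position only.

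The 7 libraries were made from 50000 CD4+ T cells each, sorted on day 8 after subcutaneous infection of C57BL/6 mice with 500 L3 larvae of the helminth Nippostrongylus brasiliensis. GFP+ cells of the IL-4-4get GFP reporter came from the mediastinal lymph node (LN IL-4+, n = 2) and from the lung (lung IL-4+, n = 3), and YFP+ cells of the IFN-gamma-Great YFP reporter came from the lung (lung IFNγ+, n = 2). GFP marks cells that transcribe Il4 and YFP marks cells that transcribe Ifng, so that the 2 lung populations differed in reporter line as well as in cytokine. Lung IFNγ+ and LN IL-4+ cells differed in tissue, cytokine and reporter line together. Per the study's methods, lungs were digested with enzymes while lymph nodes were dissociated mechanically. Tissue and digestion therefore cannot be told apart in the comparisons with LN. All 3 populations were from infected mice of a single experiment, the sort removed cells with CD8, NK1.1, CD11b, CD11c or B220 on their surface, and the labels give neither age nor which libraries share a mouse, so p-values measure only the spread between these libraries.

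T-bet, the product of Tbx21, is the T-box factor that drives CD4+ T cells towards the Th1 fate, in which they make IFNγ. It is induced by IFNγ and, through STAT4, by IL-12, and it acts on Ifng and on the genes of chemokine receptors such as Cxcr3. Eomesodermin, a second T-box factor, is best known from CD8+ T cells and NK cells, where it works with T-bet on the genes of cytotoxic cells, and Hlx is a homeobox factor that is induced downstream of T-bet and helps it to turn on Ifng. IL-4-producing Th2 cells depend on GATA3, and T-bet and GATA3 restrain each other.

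Levels are given as log2 density, the log2 of insertions per kilobase of region after the authors' normalization for library size. A region is named by its gene and by the distance of its midpoint from the annotated gene start, with plus signs in the direction of transcription. The following windows are the central 300 bases, on the forward strand of GRCm38 (mm10), of 2 of the regions of Tbx21 that passed a test, of the region of Hlx that was highest in every lung IFNγ+ library and of the most accessible of the 20 regions, which lay behind Eomes. Capitals mark exact matches of the ETS letters GGAAGT and the Tcf letters TCAAAG on either strand.

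Tbx21 +2.64 kb, chr11:97112547-97112846: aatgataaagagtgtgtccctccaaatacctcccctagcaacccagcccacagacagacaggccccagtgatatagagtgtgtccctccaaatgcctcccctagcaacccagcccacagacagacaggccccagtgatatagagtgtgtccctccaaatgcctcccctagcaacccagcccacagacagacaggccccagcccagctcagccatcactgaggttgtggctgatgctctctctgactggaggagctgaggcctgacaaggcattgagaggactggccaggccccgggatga
Tbx21 -8.19 kb, chr11:97123374-97123673: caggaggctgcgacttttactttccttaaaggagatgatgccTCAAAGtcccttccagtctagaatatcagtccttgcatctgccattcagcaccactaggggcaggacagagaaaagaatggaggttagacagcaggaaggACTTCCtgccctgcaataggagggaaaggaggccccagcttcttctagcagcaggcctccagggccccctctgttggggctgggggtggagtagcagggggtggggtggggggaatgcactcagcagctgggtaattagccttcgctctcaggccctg
Hlx -5.46 kb, chr1:184737933-184738232: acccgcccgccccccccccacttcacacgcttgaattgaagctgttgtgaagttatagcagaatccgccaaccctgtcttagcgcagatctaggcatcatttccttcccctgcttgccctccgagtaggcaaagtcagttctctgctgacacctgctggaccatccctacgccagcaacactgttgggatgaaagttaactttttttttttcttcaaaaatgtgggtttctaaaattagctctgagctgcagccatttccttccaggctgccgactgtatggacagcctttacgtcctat
Eomes +11.55 kb, chr9:118489612-118489911: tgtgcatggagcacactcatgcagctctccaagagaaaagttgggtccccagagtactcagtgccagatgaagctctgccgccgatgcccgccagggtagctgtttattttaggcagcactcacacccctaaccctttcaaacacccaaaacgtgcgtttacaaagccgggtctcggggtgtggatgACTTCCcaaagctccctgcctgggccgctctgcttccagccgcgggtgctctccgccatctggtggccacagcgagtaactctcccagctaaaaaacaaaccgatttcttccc

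The Tbx21 promoter is shown next to them because it lies inside the region over the gene start, which passed no test. It is the 250 bases before the RefSeq start on the reverse strand of GRCm38.p6.

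Tbx21 promoter, chr11:97115332-97115581: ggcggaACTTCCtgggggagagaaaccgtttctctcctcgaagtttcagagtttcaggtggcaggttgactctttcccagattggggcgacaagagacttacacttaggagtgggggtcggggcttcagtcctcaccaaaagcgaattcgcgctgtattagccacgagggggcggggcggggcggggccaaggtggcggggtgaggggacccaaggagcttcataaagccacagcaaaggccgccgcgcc

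The letters of 8 motifs were searched on both strands in the central windows of all 113820 regions and in 32851 RefSeq promoters, and a match is a description of letters and not a bound site. ETS letters were in the windows of Tbx21 -8.19 kb and Eomes +11.55 kb and in the Tbx21 promoter, against 24.0% of all windows and 19.7% of all promoters. Tcf letters were in the window of Tbx21 -8.19 kb, against 21.6% of all windows. The windows of Tbx21 +2.64 kb and Hlx -5.46 kb held none of the motifs. The T-box letters AGGTGTGA, present in 1.68% of all windows, were in 0 of the 20 windows and, over whole regions, in 1, the region over the Eomes start. The Runx motif, searched as AACCACA, stood in 11% of all windows and in none of the 4 windows printed. The same held for the letters of the GATA factors, searched as AGATAA and found in 15.2% of all windows, and for bZIP factors such as AP-1, searched as TGACTCA and found in 9.49%. Nor did these windows hold the NFAT motif, searched as TGGAAAA and found in 7.16% of all windows, or the STAT motif, which was searched as TTCNNNGAA and was in 9.32%. Over whole regions these letters did occur. Eomes +9.46 kb (3409 bp) held 1 match each of Runx, GATA, bZIP, NFAT and STAT, and Tbx21 +5.83 kb (1055 bp) held 1 each of GATA and bZIP. Shares over all whole regions are not given here. The window of Tbx21 +2.64 kb consists largely of a tandem repeat, with a stretch of 106 bases that occurs again at a spacing of 66 bases, and the part of read mapping in its values was not tested.

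The libraries held between 14005923 and 91681969 insertions, as rebuilt from tied values, and the rebuilt counts of the 20 regions ran from 18 to 4991 with a median of 111. By the spread of these counts over regions, the libraries fell into a wide class (both lung IFNγ+ libraries, LN replicate 2 and lung IL-4+ replicate 1) and a narrow class (LN replicate 1 and lung IL-4+ replicates 2 and 3). No lung IFNγ+ library was in the narrow class, so that class and population are partly confounded, and values by class are given below beside the results that move with it. Over all regions, log2 densities of lung IL-4+ replicate 1 correlated at 0.881 and 0.895 with the lung IFNγ+ libraries. With the other lung IL-4+ libraries the correlations were 0.813 and 0.776. LN replicate 2 correlated at 0.840 with lung IL-4+ replicate 1 and at 0.763 with LN replicate 1. Starts of 6 of 7 T cell genes had regions, with summed densities of 103.4 to 126.4 in LN IL-4+, 94.2 to 121.3 in lung IL-4+ and 87.2 to 88.1 in lung IFNγ+ cells, while 0 of 5 B cell genes had one. Of the NK cell genes Ncr1, Klra8 and Klrb1c, the last alone had regions at its start. The highest density among these was 2.34 to 3.32 in LN IL-4+, 3.54 to 4.91 in lung IL-4+ and 5.49 to 7.66 in lung IFNγ+ cells. The summed densities of the other lists likewise add the highest region of each gene. Of the CD8+ T cell genes, Cd8a had no region at its start and Cd8b1 lay between 2.95 and 7.31. Of 5 myeloid genes, Csf1r and Lyz2 had none, and the summed density of the others was between 12.4 and 22.8 in LN IL-4+, between 15.6 and 18.1 in lung IL-4+ and between 18.9 and 21.0 in lung IFNγ+ cells. Itgam among them, the gene of CD11b, was between 0.898 and 2.89 in the IL-4+ libraries and at 7.77 and 5.39 in the lung IFNγ+ libraries, while Spi1 (8.29 to 9.53 in lung IL-4+, 7.20 and 8.01 in lung IFNγ+) and Cd14 (5.70 to 7.38 and 5.49 to 6.01) did not exceed the range of the lung IL-4+ libraries there. Of 4 genes of lung epithelium and endothelium, Sftpc and Cdh5 had no region, and the summed density of Epcam and Pecam1 was between 23.0 and 23.7 in lung IFNγ+ and between 26.0 and 35.2 in the IL-4+ libraries. In bulk cells, fewer cells that are open at a region and less opening per cell cannot be told apart, and the part of other cell types in the values below was not tested.

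All regions called in any comparison were at Tbx21, although its locus sum was not called. In both lung populations, an intronic region in the distal part of the gene was more accessible than in the LN, about 4.56-fold in lung IL-4+ and 5.40-fold in lung IFNγ+ cells, and the lung populations did not pass a test against each other there. At 2 further regions, in the first part of the gene and upstream of it, lung IFNγ+ cells alone were called above LN IL-4+ cells. The mean of lung IL-4+ cells lay between at both. There too the lung populations did not pass a test against each other (limma adjusted p = 0.381 and 0.243). The region over the gene start passed no test in any comparison.

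Tbx21 +11.5 kb (1289 bp, intron) had log2 densities of 1.99 and 1.21 in the LN IL-4+ libraries, 3.53, 3.88 and 3.97 in the lung IL-4+ libraries and 4.08 and 3.99 in the lung IFNγ+ libraries. All 5 lung libraries lay above both LN libraries, and the lung IFNγ+ libraries lay just above those of the lung IL-4+ cells. Within the wide class the levels were 1.21, 3.53, 4.08 and 3.99, and within the narrow class 1.99, 3.88 and 3.97, so that lung was above LN in each class. The difference of lung IL-4+ from LN IL-4+ cells was 2.19 (SE 0.29, 95% interval 1.54 to 2.84, limma adjusted p = 0.00598), and that of lung IFNγ+ from LN IL-4+ cells was 2.43 (SE 0.32, 95% interval 1.73 to 3.14, limma adjusted p = 0.00394). These comparisons share their LN libraries. Lung IL-4+ was 0.24 below lung IFNγ+ on this scale, with an interval of the signed difference from -0.89 to 0.40 (limma adjusted p = 0.697). The call against LN was lost for lung IL-4+ cells without lung IL-4+ replicate 2 (2.15, limma adjusted p = 0.0535). Without lung IFNγ+ replicate 1 or 2, the difference of lung IFNγ+ from LN was 2.39 and 2.48. These fits leave 1 lung IFNγ+ library, so no call is given for them.

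Tbx21 -8.19 kb (chr11:97123318-97123728, 411 bp, intergenic and upstream of the gene) was at 1.42 and 1.12 in LN IL-4+, at 2.39, 2.99 and 1.42 in lung IL-4+ and at 3.56 and 3.49 in lung IFNγ+ libraries. The lung IFNγ+ libraries were above all others, and lung IL-4+ replicate 3 was at the level of the higher LN library. Lung IFNγ+ exceeded LN IL-4+ cells by 2.25 (SE 0.48, 95% interval 1.19 to 3.32, limma adjusted p = 0.0291), which is 4.77-fold. Lung IL-4+ cells lay between, 1.00 above LN IL-4+ (SE 0.44, limma adjusted p = 0.297) and 1.26 below lung IFNγ+ cells (signed interval -2.23 to -0.28, limma adjusted p = 0.243). Without LN replicate 1 or 2, the difference of lung IFNγ+ from LN was 2.40 and 2.10, and without lung IFNγ+ replicate 1 or 2 it was 2.22 and 2.29. Each of these fits leaves 1 library in a population, so no call is given for them.

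Tbx21 +2.64 kb (chr11:97112205-97113188, 984 bp, intron) holds the tandem repeat shown above. It was at 1.35 and 0.25 in LN IL-4+, at 1.55, 2.56 and 1.94 in lung IL-4+ and at 2.89 and 2.93 in lung IFNγ+ libraries. The 3 populations did not overlap, with LN IL-4+ lowest and lung IFNγ+ highest. The outer pair differed by 2.11 (SE 0.50, 95% interval 1.00 to 3.23, limma adjusted p = 0.0439), which is 4.32-fold, while neither neighbouring pair passed the test (1.22 for lung IL-4+ against LN, adjusted p = 0.215; -0.90 for lung IL-4+ against lung IFNγ+, adjusted p = 0.381). Of the calls at Tbx21, it was the one most often lost. In a fit of these populations alone its limma adjusted p was 0.0717, and without lung IL-4+ replicates 2 or 3 it was 0.067 and 0.0628. The difference was 2.66 and 1.56 without LN replicates 1 or 2, and 2.13 and 2.09 without lung IFNγ+ replicates 1 or 2. These last fits leave 1 library in a population, so no call is given for them.

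The widest difference among the 20 regions was at Tbx21 +5.83 kb (chr11:97108971-97110025, 1055 bp, intron), where it was not called. Its log2 densities were 1.40 and -0.78 in LN IL-4+, 0.51, 2.29 and 2.12 in lung IL-4+ and 3.15 and 3.19 in lung IFNγ+ libraries. Both lung IFNγ+ libraries were above the other 5, while the IL-4+ libraries of LN and lung overlapped. Lung IFNγ+ and LN IL-4+ cells differed by 2.86 (SE 0.76, 95% interval 1.17 to 4.56, limma adjusted p = 0.0667), and lung IL-4+ cells were 1.53 below lung IFNγ+ cells (signed interval -3.08 to 0.01, adjusted p = 0.341). The difference of lung IFNγ+ from LN was 1.77 without LN replicate 2 and 3.95 without LN replicate 1, fits that leave 1 LN library. In the IL-4+ cells the libraries of the wide class were the low ones, at -0.78 and 0.51, against 1.40 to 2.29 in the narrow class. With the spread class as a covariate, lung IL-4+ was called below lung IFNγ+ (difference -2.80, adjusted p = 0.00744) and lung IFNγ+ above LN IL-4+ (3.82, adjusted p = 0.000374).

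Downstream of the gene, Tbx21 +19.05 kb (chr11:97095985-97096577, 593 bp, 652 bp from the start of the pseudogene Gm11573) was at 2.24 and 1.42 in LN IL-4+, 1.59, 1.22 and 1.54 in lung IL-4+ and 2.77 and 2.94 in lung IFNγ+ libraries. It was the 1 region of the gene with a lower mean in lung IL-4+ than LN cells (difference -0.38, SE 0.39, adjusted p = 0.713), and lung IL-4+ was 1.40 below lung IFNγ+ cells (SE 0.39, signed interval -2.27 to -0.54, adjusted p = 0.155). Tbx21 +13.4 kb (chr11:97101717-97102140, 424 bp), which overlaps an exon, was at 2.73 and 2.00 in LN IL-4+, 2.88, 2.81 and 2.24 in lung IL-4+ and 3.08 and 2.95 in lung IFNγ+ libraries. None of its differences exceeded 0.66 on the log2 scale.

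The region over the Tbx21 start (chr11:97113875-97116214, 2340 bp), which holds the promoter printed above, was at 2.99 and 1.37 in LN IL-4+, 1.70, 3.04 and 2.52 in lung IL-4+ and 2.38 and 2.43 in lung IFNγ+ libraries. Its population means of 2.18 ± 1.15 (SD, n = 2), 2.42 ± 0.67 (SD, n = 3) and 2.41 ± 0.03 (SD, n = 2) differed by less than the spread within LN or lung IL-4+ cells. The intervals of the differences were wide, from -1.13 to 1.16 between the lung populations, -0.91 to 1.38 for lung IL-4+ against LN and -1.03 to 1.48 for lung IFNγ+ against LN. Here and at Tbx21 -9.46 kb (0.03 to 2.77 over all libraries), the lowest LN and the lowest lung IL-4+ library were those of the wide class. With the class as a covariate, lung IFNγ+ was called above LN at -9.46 kb (1.66, adjusted p = 0.0367, against 0.69 and 0.676 without it), and the start region was called in no comparison.

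**Figure D1:**
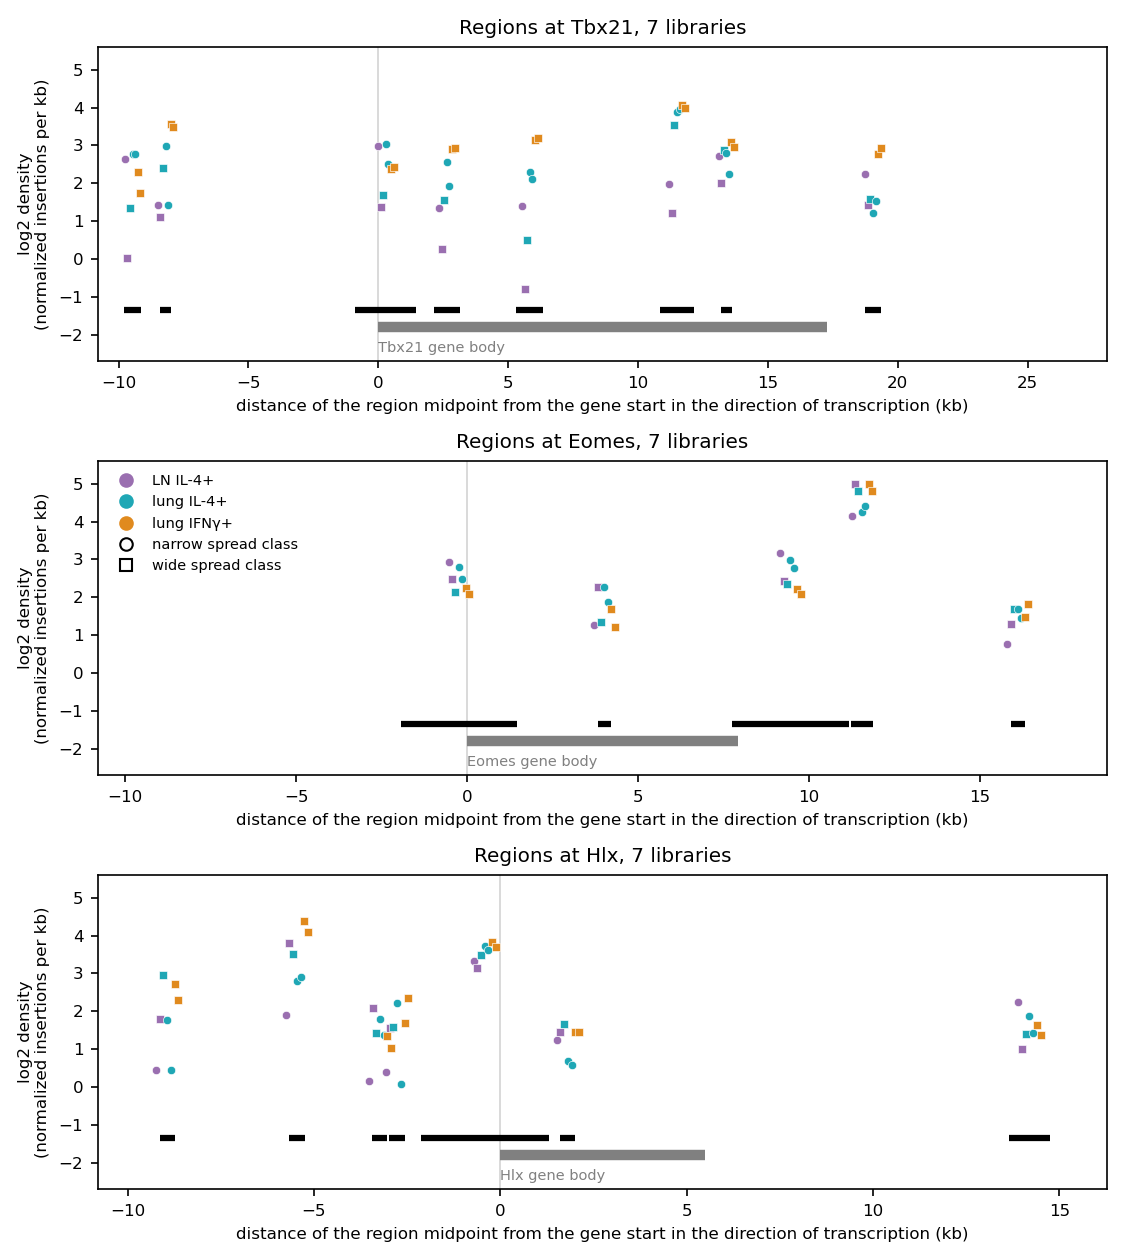
Log2 density (normalized insertions per kb, vertical axis) of the 20 regions in each of the 7 libraries against the distance of the region midpoint from the gene start in kb (horizontal axis, libraries set slightly apart); colours are populations, circles and squares the narrow and wide spread class, black bars the regions and grey bars the gene bodies. At Tbx21 the 5 lung libraries lie between 3.53 and 4.08 at +11.5 kb with the LN libraries at 1.99 and 1.21, while at the gene start the populations overlap.

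At Eomes, 0 of the 5 regions were called in any comparison. Of all regions, at most 2.17% were called in either direction of any comparison, so 0 of 5 does not set the locus apart. The most accessible of all 20 regions was Eomes +11.55 kb (chr9:118489449-118490074, 626 bp), downstream of the gene and 662 bp from the start of the antisense transcript Gm33460. It was at 4.14 and 4.99 in LN IL-4+, 4.80, 4.26 and 4.42 in lung IL-4+ and 4.98 and 4.81 in lung IFNγ+ libraries, and its mean over the libraries stood above 92.7% of all regions. The differences between populations were between -0.40 and 0.33, with intervals from -0.98 to 0.19 for lung IL-4+ against lung IFNγ+, -0.66 to 0.52 for lung IL-4+ against LN and -0.31 to 0.97 for lung IFNγ+ against LN. In each IL-4+ population the libraries of the wide class were the high ones.

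Over the Eomes start (chr9:118476273-118479667, 3395 bp), log2 densities were 2.93 and 2.48 in LN IL-4+, 2.14, 2.79 and 2.48 in lung IL-4+ and 2.26 and 2.08 in lung IFNγ+ libraries. Eomes +9.46 kb (chr9:118485969-118489377, 3409 bp), which covers the last part of Eomes and the overlapping Gm33460, was at 3.16 and 2.42 in LN IL-4+, 2.36, 3.00 and 2.78 in lung IL-4+ and 2.22 and 2.08 in lung IFNγ+ libraries. At both, the lung IFNγ+ libraries were below the LN libraries, by 0.54 (SE 0.36, adjusted p = 0.468) at the start and by 0.64 (SE 0.37, adjusted p = 0.398) at +9.46 kb. ATAC-seq reads carry no strand, so that accessibility cannot be assigned to Eomes or to Gm33460 where they overlap. Eomes +16.11 kb (chr9:118494123-118494523, 401 bp) was at 0.77 and 1.30 in LN IL-4+, 1.69, 1.69 and 1.45 in lung IL-4+ and 1.48 and 1.82 in lung IFNγ+ libraries. All lung libraries were above LN there, by 0.58 for lung IL-4+ (SE 0.44, adjusted p = 0.587) and 0.61 for lung IFNγ+ cells (SE 0.48, adjusted p = 0.529), and no population reached a mean density of 5. The remaining region, Eomes +4.02 kb, was between 1.22 and 2.27.

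By its mean over the libraries, Hlx was most accessible over its start (chr1:184731316-184734755, 3440 bp), with 3.33 and 3.14 in LN IL-4+, 3.47, 3.72 and 3.61 in lung IL-4+ and 3.83 and 3.69 in lung IFNγ+ libraries. LN libraries were below all lung libraries, and the lung populations overlapped. The differences were small and did not pass the test, at 0.37 for lung IL-4+ against LN (SE 0.22, adjusted p = 0.471) and 0.53 for lung IFNγ+ against LN (SE 0.24, 95% interval -0.01 to 1.06, adjusted p = 0.28).

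Hlx -5.46 kb (chr1:184737863-184738302, 440 bp, in an intron of the noncoding RNA Gm34342) had the widest differences at the gene in both comparisons with lung IFNγ+ cells. It was at 1.89 and 3.80 in LN IL-4+, 3.50, 2.80 and 2.90 in lung IL-4+ and 4.39 and 4.10 in lung IFNγ+ libraries. The lung IFNγ+ libraries were the highest, while LN replicate 2 was above every lung IL-4+ library. Lung IL-4+ was 1.18 below lung IFNγ+ (SE 0.47, signed interval -2.22 to -0.14, adjusted p = 0.294), and lung IFNγ+ was 1.40 above LN IL-4+ cells (SE 0.51, 95% interval 0.26 to 2.54, adjusted p = 0.176). This last difference was 2.35 without LN replicate 2 and 0.44 without LN replicate 1, fits that leave 1 LN library. None of the alternative fits that kept both LN libraries called it. In the IL-4+ cells the wide class was high here, at 3.80 and 3.50, against 1.89 to 2.90 in the narrow class, and within the wide class the lung IFNγ+ libraries were still above both.

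Farther upstream, Hlx -8.94 kb (chr1:184741358-184741764, 407 bp) was at 0.44 and 1.79 in LN IL-4+, 2.95, 1.77 and 0.46 in lung IL-4+ and 2.71 and 2.30 in lung IFNγ+ libraries. Its lung IL-4+ libraries spanned nearly the whole range of the region, and lung IFNγ+ exceeded LN IL-4+ by 1.39 (SE 0.74, adjusted p = 0.355). The other 4 regions of Hlx lay between 0.08 and 2.35 over all libraries and in no population reached a mean density of 5.

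**Figure D2:**
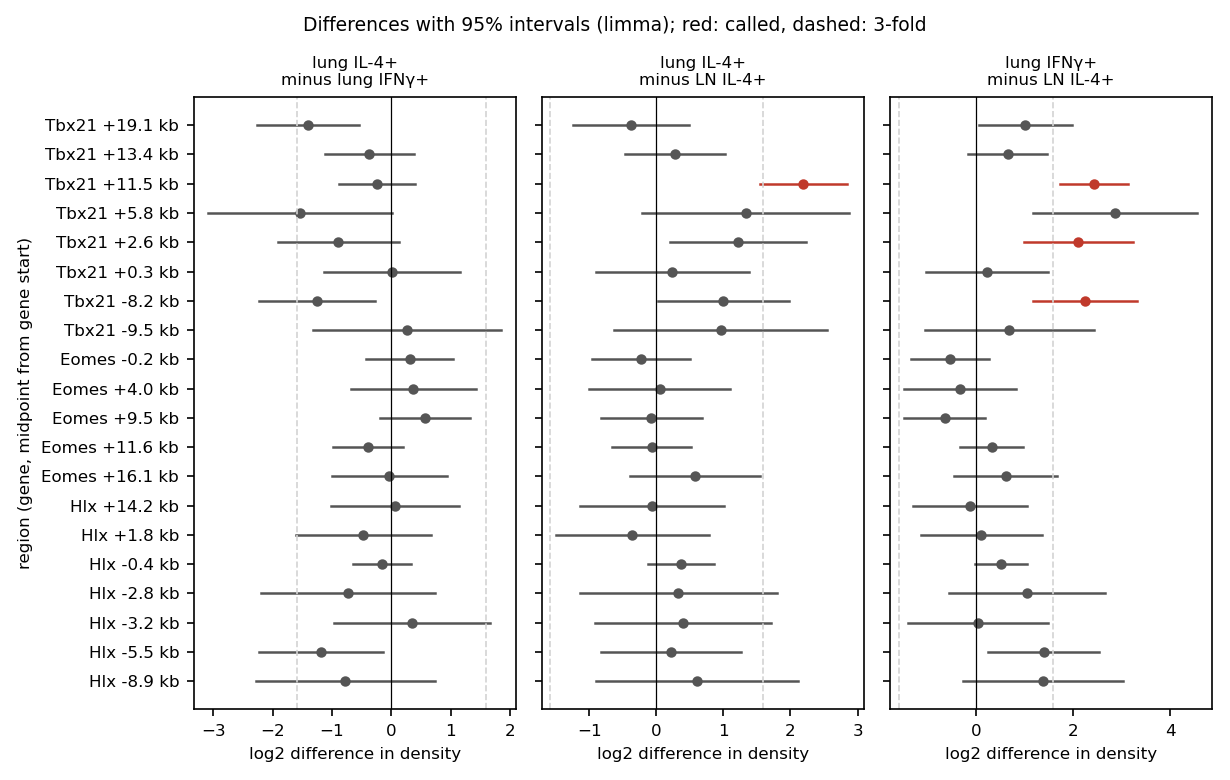
Log2 differences in density with 95% intervals (limma, horizontal axis) for the 20 regions (vertical axis, by gene and distance of the midpoint from the gene start) in the 3 comparisons; red marks regions that were called and dashed lines a 3-fold change. Tbx21 +11.5 kb is called in both comparisons with LN, at 2.19 and 2.43, Tbx21 +2.64 kb and -8.19 kb are called for lung IFNγ+ against LN, and no region of Eomes or Hlx is red.

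A region was called at a limma adjusted p below 0.05, over all regions, if its levels also differed by 3-fold or more. Between lung IL-4+ and lung IFNγ+ cells, 0 of the 20 regions were called by limma, and 3 had an unadjusted p below 0.05. In the whole table, 0.108% of regions were called higher in lung IL-4+ and 0.387% higher in lung IFNγ+ cells. For lung IL-4+ against LN IL-4+, 1 of 20 was called higher in lung and 0 higher in LN, where 1.05% and 0.695% of all regions were. For lung IFNγ+ against LN IL-4+, 3 of 20 were called higher in lung IFNγ+ cells and 0 higher in LN, against 2.17% and 0.862% of all regions. All these calls were among the 8 regions of Tbx21.

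Counted by libraries that did not overlap, 8 of 20 regions were higher in all lung IFNγ+ than in all lung IL-4+ libraries, and 6 of those were at Tbx21, while 2 were higher in lung IL-4+ cells, 1 at Eomes and 1 at Hlx. The same held for 21.2% and 19.4% of all regions. Against LN, lung IL-4+ was higher in 4 regions (13.6% of all regions) and lower in 0 (14.3%). Lung IFNγ+ was higher than LN in 12 (26.5% of all regions), of which 6 were at Tbx21, 5 at Hlx and 1 at Eomes, and lower in 2 (27.2%), both at Eomes. The median log2 difference of lung IFNγ+ from LN IL-4+ cells was 1.57 over the regions of Tbx21, 0.53 over those of Hlx and -0.32 over those of Eomes, with -0.03 over all regions. The corresponding medians for lung IL-4+ against LN were 0.98, 0.32 and -0.07, with -0.03 over all regions.

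By the density of at least 5 that counted a region as accessible, 14 of 20 regions were accessible in 1 or more populations. These were all 8 at Tbx21, 3 of 5 at Eomes and 3 of 7 at Hlx. The share of all regions that reached this density is not given here, so the counts do not set the loci apart. At Tbx21, the start region and +13.4 kb reached it in every population, +11.5 kb and -8.19 kb in both lung populations, +19.05 kb, +5.83 kb and +2.64 kb in lung IFNγ+ cells alone, and -9.46 kb in lung IL-4+ cells alone. At Eomes the start and +9.46 kb reached it in both IL-4+ populations but not in lung IFNγ+ cells, with mean densities of 4.50 and 4.45 there. Eomes +11.55 kb, the Hlx start and Hlx -5.46 kb reached it in every population, and Hlx -8.94 kb in lung IFNγ+ cells alone.

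Summed over each gene and 10 kb on each side, the loci gave 1 value per library. At Tbx21 the sums were 39.7 and 15.6 normalized insertions in LN IL-4+, 35.5, 61.1 and 51.1 in lung IL-4+ and 66.3 and 64.8 in lung IFNγ+ libraries, with means of 27.7 ± 17.0 (SD, n = 2), 49.3 ± 12.9 (SD, n = 3) and 65.6 ± 1.05 (SD, n = 2). Lung IFNγ+ libraries were above all others, and LN and lung IL-4+ libraries overlapped. Within the wide class, LN at 15.6 was below lung IL-4+ at 35.5 and lung IFNγ+ at 64.8 and 66.3, and LN was below lung IL-4+ in the narrow class, at 39.7 against 51.1 and 61.1. No pair of populations passed the test, with log2 differences of 1.39 for lung IFNγ+ against LN (SE 0.41, limma adjusted p = 0.153), 0.95 for lung IL-4+ against LN (SE 0.38, adjusted p = 0.318) and -0.45 for lung IL-4+ against lung IFNγ+ (SE 0.38, adjusted p = 0.498). The differences from LN moved with the LN library. Without LN replicate 1 they were 2.07 for lung IFNγ+ and 1.62 for lung IL-4+ cells, and without LN replicate 2 they were 0.72 and 0.27. These fits leave 1 LN library. With the spread class as a covariate all 3 were called, at 1.87 (adjusted p = 0.000172), 0.79 (adjusted p = 0.00668) and -1.08 (adjusted p = 0.0124). The share of all loci called in that fit is not given here, so these calls do not set the locus apart.

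At Hlx the sums were 44.0 in both LN IL-4+ libraries, 52.8, 57.8 and 50.8 in lung IL-4+ and 67.7 and 60.9 in lung IFNγ+ libraries. The 3 populations did not overlap, in the same order as at Tbx21. The differences were 0.54 for lung IFNγ+ against LN (SE 0.14, 95% interval 0.23 to 0.86, adjusted p = 0.101), 0.29 for lung IL-4+ against LN (SE 0.12, adjusted p = 0.357) and -0.26 for lung IL-4+ against lung IFNγ+ (SE 0.12, adjusted p = 0.349), none of them called.

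At Eomes the sums were 68.9 and 60.0 in LN IL-4+, 52.3, 65.9 and 58.4 in lung IL-4+ and 54.3 and 48.6 in lung IFNγ+ libraries. Lung IFNγ+ was the lowest population there, below both LN libraries and overlapping with lung IL-4+. It differed from LN by -0.32 (SE 0.16, 95% interval -0.69 to 0.05, adjusted p = 0.354), and lung IL-4+ exceeded it by 0.19 (SE 0.15, adjusted p = 0.463). Per kilobase of region, Tbx21 was the least accessible of the 3 loci in LN IL-4+ cells, at a mean of 3.58 against 7.83 at Eomes and 6.67 at Hlx, and stood at 8.48 against 6.25 and 9.74 in lung IFNγ+ cells. In the table of all 17021 protein-coding genes with a region, 2.15% of loci were called for lung IFNγ+ against LN, 1.08% for lung IL-4+ against LN and 0.0529% for lung IL-4+ against lung IFNγ+, and 0 of the 3 loci were in any of them.

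**Figure D3:**
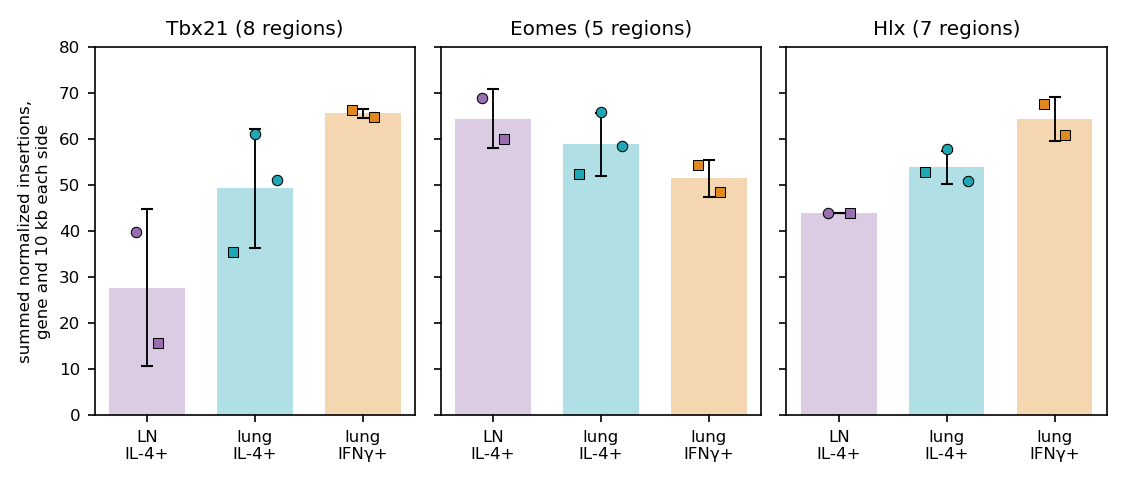
Normalized insertions summed over the regions of each gene and 10 kb on each side (vertical axis, from 0) by population (horizontal axis); bars are means, error bars SD (n = 2, 3 and 2), and circles and squares single libraries of the narrow and wide spread class. Both lung IFNγ+ libraries are the highest at Tbx21 (66.3 and 64.8) and at Hlx (67.7 and 60.9), and at Eomes they lie at 54.3 and 48.6, below both LN libraries.

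The pathway around the members was described with 40 genes of Th1 ligands, receptors, signalling, transcription factors and targets, which had 581 regions. These genes were chosen with earlier results of these data known. Their shares beside those of all regions are therefore a description and not an independent test. In lung IFNγ+ against LN IL-4+ cells, 55 regions (9.47%, against 2.17% of all regions) were called higher in lung IFNγ+ and 0 lower, in 22 of the 40 genes, and 14 loci were called higher by their sums and 0 lower, where 2.15% of all loci were called in either direction. For lung IL-4+ against LN, 21 regions (3.61%, against 1.05% of all regions) were called higher and 1 (0.172%, against 0.695%) lower, and 5 loci higher and 0 lower, with 1.08% of all loci called. Between the lung populations, 13 regions (2.24%, against 0.387% of all regions) were called higher in lung IFNγ+ and 0 in lung IL-4+ cells, with 2 loci, where 0.0529% of all loci were called.

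The target genes of the list held the most calls of lung IFNγ+ against LN. These were 29 of their 126 regions (23.0%, against 2.17% of all regions) and 9 of 14 loci, where 2.15% of all loci were called. Among these loci were the chemokine receptor Cxcr3 (2.47, SE 0.20), the chemokines Ccl3 (2.78, SE 0.35) and Ccl5 (2.32, SE 0.24), and the death ligand Fasl (1.47, SE 0.18). Also called were the cytotoxic genes Gzmb (2.69, SE 0.24) and Prf1 (1.69, SE 0.27) and the surface markers Klrg1 (1.08, SE 0.15) and Ly6c2 (0.91, SE 0.17). Of these, Gzmb (2.20, SE 0.22) and Klrg1 (0.84, SE 0.14) were also called in lung IL-4+ against LN cells, a comparison with the same LN libraries. Between the lung populations Cxcr3 was called, with the lower sum in the IL-4+ cells (-2.05, SE 0.18, adjusted p = 0.0218), and the sums at the 3 members were not called in that comparison.

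Among the 7 receptor genes, the sums of Il18r1 (1.28, SE 0.17) and Il18rap (1.95, SE 0.22), the chains of the IL-18 receptor, and Il12rb2 (0.80, SE 0.15), the inducible chain of the IL-12 receptor, were called higher for lung IFNγ+ against LN IL-4+. In lung IL-4+ against LN cells, Il18r1 (1.06, SE 0.15) and Il18rap (1.63, SE 0.20) were called as well. Il12rb2 was -0.40 there (SE 0.14, adjusted p = 0.247), and between the lung populations it was called lower in the IL-4+ cells (-1.20, SE 0.14, adjusted p = 0.0494). Of 7 ligand and cytokine genes, Ifng alone had a called sum, 2.31 for lung IFNγ+ against LN (SE 0.29, adjusted p = 0.0141), and the lung IFNγ+ cells were sorted by a reporter of this gene. It was -1.71 in lung IL-4+ against lung IFNγ+ cells (SE 0.27, adjusted p = 0.0675).

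Upstream of Tbx21, the 4 signalling genes of the list, Jak2, Tyk2 and Stat4 among them, had 110 regions, of which 2 (1.82%, near the 2.17% of all regions) were called higher in lung IFNγ+ than LN and 1 (0.909%, near the 1.05% of all regions) higher in lung IL-4+ than LN. All of these were at Stat4, and 0 of 4 sums were called. Of 8 further transcription factors, the sum at Bhlhe40, a regulator of cytokine production, was called higher in lung IFNγ+ (0.92, SE 0.12) and in lung IL-4+ cells (0.93, SE 0.11) than in LN. Runx3, a partner of T-bet, was 0.23 (SE 0.28, adjusted p = 0.681) in lung IFNγ+ against LN and 0.71 (SE 0.26, adjusted p = 0.273) in lung IL-4+ against LN by its sum. Of its 27 regions, 2 were called higher in lung IFNγ+ cells than in LN, where 2.17% of all regions were. For lung IL-4+ against LN, 3 of the 27 were called higher, where 1.05% of all regions were. Gata3, the Th2 factor, was 0.75 higher in lung IL-4+ than lung IFNγ+ cells by its sum (SE 0.23), which did not pass the test (adjusted p = 0.269). Of its 26 regions 1 was called, higher in lung IFNγ+ cells than in LN. In that direction 2.17% of all regions were called, so 1 of 26 does not set the locus apart.

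**Figure D4:**
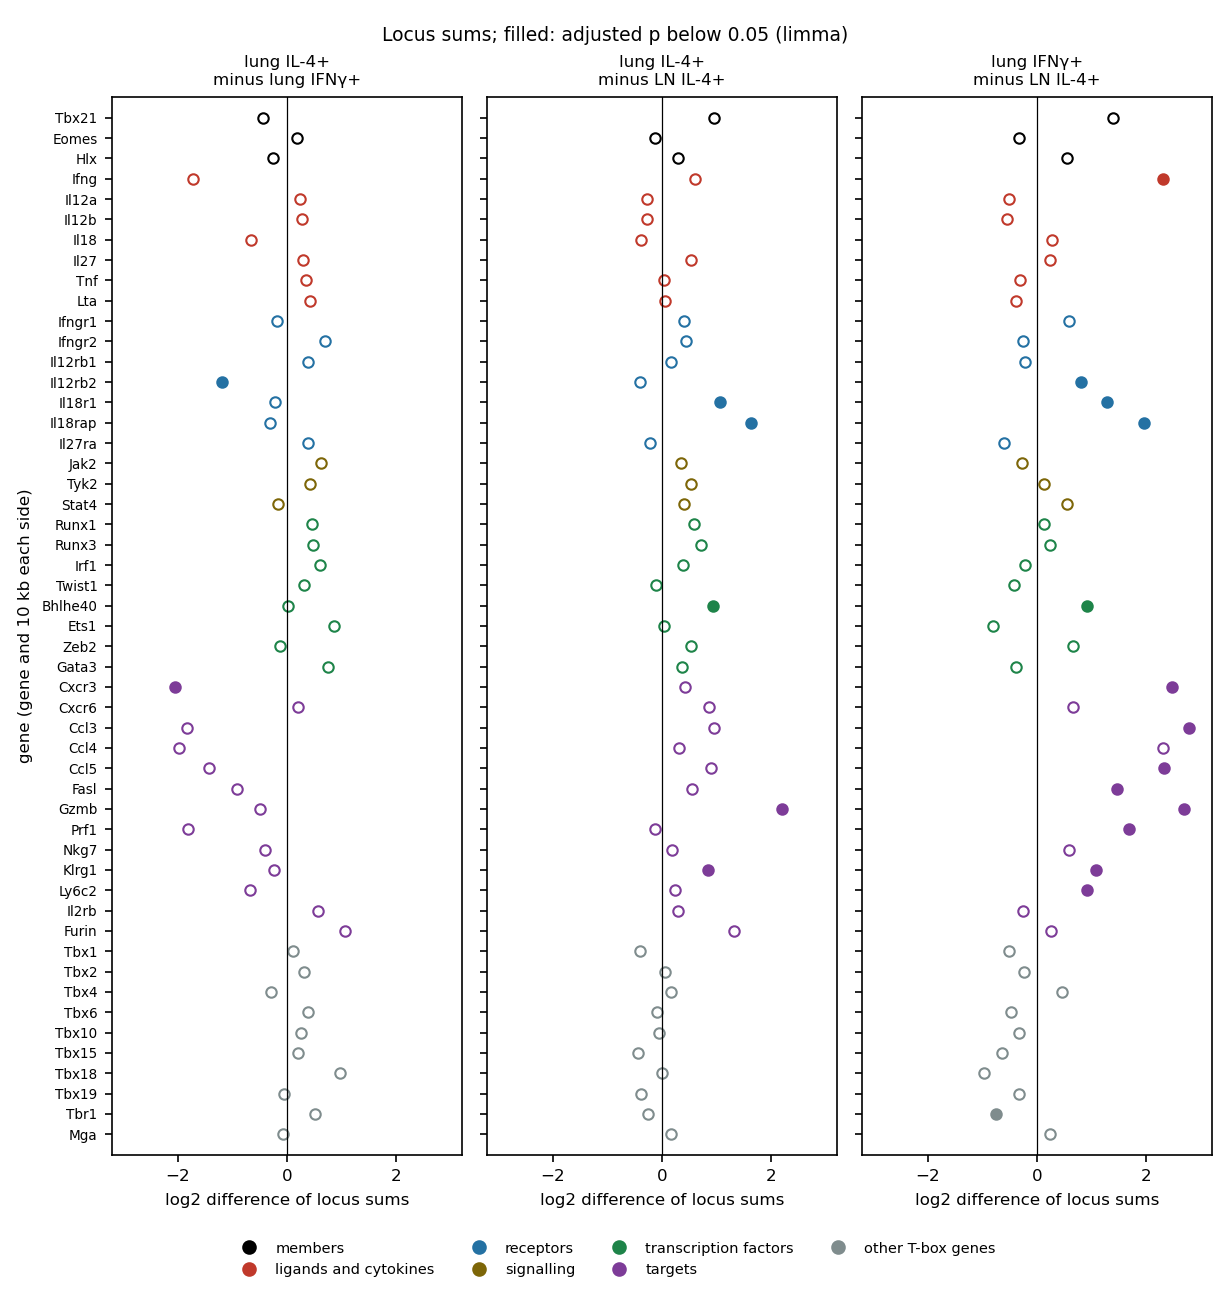
Log2 differences of the locus sums (horizontal axis) of the 3 members, 38 of the 40 genes of the Th1 list and 10 other T-box genes with a region (vertical axis) in the 3 comparisons; colours are the roles and filled points passed limma's test at an adjusted p below 0.05. For lung IFNγ+ against LN, 8 targets are filled, with Ccl3 at 2.78, and the members Tbx21 at 1.39, Hlx at 0.54 and Eomes at -0.32 are open.

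Of 15 other T-box genes in the annotation, 10 had regions in their windows, 69 in all. By limma, 0 of the 69 were called in any comparison. Of all regions, between 0.108% and 2.17% were called by comparison and direction, and 0 of 69 is near that share. Tbr1, the T-box gene of the developing brain, had a called sum for lung IFNγ+ against LN, with a log2 difference of -0.76 (SE 0.14, adjusted p = 0.0374). The median difference of the 10 sums in that comparison was -0.41, against -0.06 over all genes, and 8 of the 10 were negative, as was that of Eomes.

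By the Pearson correlation of log2 locus sums over the 7 libraries, given as a description, the genes most like Tbx21 were Fam129b (r = 0.977), Rhoq (r = 0.949) and Il22ra2 (r = 0.948), among 2497 genes with a comparable spread, of which 10 had r above 0.9. Those most like Hlx were Hip1 (r = 0.981), Ttll1 (r = 0.976) and Plcd1 (r = 0.970), among 11564 genes with 113 above 0.9. Those most like Eomes were Pth1r (r = 0.991), Kcng1 (r = 0.982) and Timm29 (r = 0.976), among 12488 genes with 162 above 0.9. The 7 points share their populations and their spread classes. None of the genes named here is among the 40 genes of the pathway, and the other genes above 0.9 were not compared with that list.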

How the data were processed

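The table deposited by the authors holds, for 113820 regions and 7 libraries, log2 insertions per kilobase, normalized for library size. Per the labels and the study's methods, reads were mapped with Bowtie2 2.3.2 to GRCm38 (mm10), peaks were called with MACS2 2.1.1 in each replicate and merged, and insertions were normalized with voom in limma 3.38.3. The sorted values of the libraries nearly coincide, as they would after quantile normalization, a step not given in the sources used here. Counts were rebuilt from ranks of tied values and are lower bounds. Poisson 95% intervals of 18 and 111 rebuilt insertions are 10.7 to 28.4 and 91.3 to 133.7, for counting error only.

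The members and gene lists were chosen with earlier results of these data known. All regions were fitted with limma 3.58.1 in R 4.3.3 (lmFit with 1 mean per population over all 7 libraries, eBayes with trend, Benjamini-Hochberg adjustment over 113820 regions within a comparison). Log2 sums over gene bodies (GENCODE M21) and 10 kb on each side were fitted in the same way over 17021 genes. No pseudocount or low filter was used. The spread classes split the libraries at the largest gap in the interquartile range of log2 rebuilt insertions per region, at 2.316. Values were given for regions over a gene start, called regions, the 2 highest other regions per gene and the largest change per gene and comparison. On simulated data with 200 features changed by 4 on the log2 scale, between 54.5% and 62.5% of changed regions and between 95.5% and 96% of changed loci were recovered. Sequences came from GRCm38.p6 and its RefSeq promoters. Alternatives were other scalings, filters, flanks, weights, covariates, a replicate block and each library left out. The values of some genes and 1 sequence are not reported here.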

Additional observations from a re-analysis of the deposited data

How the results depend on the processing

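Of the 20 regions, 0 were called between the lung populations, 1 for lung IL-4+ against LN and 3 for lung IFNγ+ against LN. With the spread class as a covariate, 1 (Tbx21 +5.83 kb), 1 and 5 were called, the last with Tbx21 +5.83 kb and -9.46 kb added. The share of all regions called in each alternative fit is not given here, so these counts do not set the loci apart. Leaving out 1 lung IL-4+ library gave 0 to 1 calls for lung IL-4+ against LN, with 0 without replicate 2, and 2 to 4 for lung IFNγ+ against LN. Leaving out an LN or lung IFNγ+ library leaves 1 in its population. Call counts of those fits are not given, though the 16 fits below include them. Tbx21 +11.5 kb kept its call in 14 of 16 alternative fits for lung IL-4+ and in 13 of 16 for lung IFNγ+ against LN, Tbx21 -8.19 kb in 11 and Tbx21 +2.64 kb in 9, and Tbx21 +5.83 kb gained one for lung IFNγ+ against LN in 7.

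Replicate numbers are shared between populations, and the labels do not say whether they pair the libraries. Deviations of same-numbered libraries from their population means correlated between -0.542 and 0.057. In a population with n = 2 the deviations mirror each other (r = -1.0), so these correlations cannot show whether the numbers pair the libraries. With the number as a replicate block, 0 member regions were called against LN in either lung population. At Tbx21 +11.5 kb the differences were then 2.10 (adjusted p = 0.125) and 2.43 (adjusted p = 0.0509), and for lung IFNγ+ against LN they were 2.25 (adjusted p = 0.0692) at -8.19 kb and 2.11 (adjusted p = 0.158) at +2.64 kb.

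For the locus sums, the spread class as a covariate called Tbx21 in all 3 comparisons, as given above (-1.08, 0.79 and 1.87), and Hlx for lung IFNγ+ against LN (0.56, adjusted p = 0.0126). Array weights, whose estimation did not converge, called Tbx21 (1.39, adjusted p = 0.043) for lung IFNγ+ against LN and Eomes (0.33, adjusted p = 0.000457) and Hlx (-0.17, adjusted p = 0.0297) between the lung populations. Voom on rebuilt counts called Hlx for lung IFNγ+ against LN (0.61, adjusted p = 0.0291). The shares of all loci called in these alternative fits are not given here. Leaving out 1 library gave 0.27 to 1.62 for Tbx21 in lung IL-4+ against LN. For lung IFNγ+ against LN it gave 0.72 to 2.07 for Tbx21 and 0.47 to 0.62 for Hlx. These ranges include fits with 1 library left in a population, for which no call is given. The difference at Eomes between lung IL-4+ and LN changed sign with array weights (0.0111) and as a mean of log2 densities (0.0507). Exact permutation tests cannot go below 0.1 with 3 against 2 libraries, or 0.333 with 2 against 2. The causes were not tested.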
